A study of Mus musculus with 617 samples.

Results

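Pou5f1, Sox2, Nanog, Sall4, Utf1 and Lin28a, 6 genes that mark pluripotent cells of the mouse, were followed in 617 single cells. They were chosen by name, and each was found by its Ensembl identifier among the 43628 genes of the data. Libraries were made from single cells by SMART-seq2 with Tn5 tagmentation, and the values were FPKM, fragments per kilobase of transcript scaled to the size of the library, so that levels are per length and can be set side by side between genes. The cells fell into 13 groups. Cultured cells came from 1 female and 1 male embryonic stem (ES) cell line, both from a cross of a male CAST/EiJ with a female C57BL/6J mouse. Each line was grown in 4 states. The first was 2i with LIF (inhibitor medium, 60 female and 51 male cells), and the second was serum with LIF (68 female and 52 male cells). The third, labelled Epi, was an epiblast stem cell culture kept in Activin A plus FGF2, with 79 cells of the female and 63 of the male line. The fourth was differentiation through embryoid bodies with retinoic acid and the smoothened agonist SAG, labelled motor neuron, with 39 cells of the female and 35 of the male line, which per the labels also yields interneurons. A separate female Epi culture of 7 passages gave 41 cells and was deposited in a table of its own. From embryos of the same cross came 23 inner cell mass cells (labelled ICM) of E3.5 and 23 cells labelled epiblast of E4.5, with no sex in the labels. Embryos with 2 C57BL/6J parents gave 20 female and 63 male cells labelled epiblast at E5.5. Since a state was sampled once per line, line and sex are the same factor, and a difference between states can be set only against the spread between these 2 lines. The labels do not say how many harvests the cells of a culture came from.

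Pou5f1 (also known as Oct4), Sox2 and Nanog are DNA-binding factors that occupy many enhancers together in pluripotent cells and regulate their own genes and each other's. Sall4, a zinc-finger factor, works in the same network, Utf1 is a chromatin-bound protein restricted largely to pluripotent and germ cells, and Lin28a is an RNA-binding protein that blocks maturation of let-7 microRNAs. Naive pluripotent cells resemble the preimplantation epiblast and express genes such as Zfp42 and Esrrb, whereas primed cells resemble the postimplantation epiblast and express genes such as Fgf5 and T.

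The promoters of 5 of the 6 genes were matched in the RefSeq table of mouse assembly GRCm38.p6. They are shown because Pou5f1 and Sox2 bind an octamer-type and a Sox-type sequence that can lie side by side, and each line ends at the base before the RefSeq start or before an earlier GENCODE start. Capitals mark the octamer-type 7-mer TTTGCAT, the Sox-type 6-mer ACAATG or the Sp-type 6-mer GGGCGG, searched on both strands.
Nanog, chr6:122707239-122707488, plus strand: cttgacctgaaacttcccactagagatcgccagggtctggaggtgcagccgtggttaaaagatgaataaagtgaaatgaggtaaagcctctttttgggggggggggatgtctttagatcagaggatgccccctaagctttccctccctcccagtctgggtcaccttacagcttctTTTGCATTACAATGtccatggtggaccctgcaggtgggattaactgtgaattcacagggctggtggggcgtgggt
Sox2, chr3:34649745-34649994, plus strand: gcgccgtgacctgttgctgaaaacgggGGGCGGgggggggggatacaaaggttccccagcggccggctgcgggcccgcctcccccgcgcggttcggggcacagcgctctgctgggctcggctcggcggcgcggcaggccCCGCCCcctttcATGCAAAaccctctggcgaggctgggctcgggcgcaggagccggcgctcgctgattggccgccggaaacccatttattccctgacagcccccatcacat
Pou5f1, chr17:35505782-35506017, plus strand: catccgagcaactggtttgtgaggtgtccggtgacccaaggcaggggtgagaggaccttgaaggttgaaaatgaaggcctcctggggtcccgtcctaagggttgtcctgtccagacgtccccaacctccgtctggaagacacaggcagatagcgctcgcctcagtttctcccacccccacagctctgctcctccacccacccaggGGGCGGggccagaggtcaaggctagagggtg
Utf1, chr7:139943606-139943788, plus strand: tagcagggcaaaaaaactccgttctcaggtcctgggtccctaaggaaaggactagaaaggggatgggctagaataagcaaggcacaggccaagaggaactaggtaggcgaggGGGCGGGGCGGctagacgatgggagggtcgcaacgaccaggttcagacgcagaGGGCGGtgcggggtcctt
The Nanog promoter held TTTGCAT from 75 to 69 bases before the RefSeq start and ACAATG from 67 to 62 bases before it, in the same orientation with 1 base between them. Among 32851 promoters of the table, 2 entries (0.00609%) held this pair within 250 bases before the start, and both belonged to Nanog. The 2 entries overlap and hold the same site. Only this exact spelling and spacing was searched, so other forms of such a pair were not counted. TTTGCAT alone was in 4.12% of the promoters and ACAATG alone in 10.7%. The Sox2 promoter held TTTGCAT on the opposite strand, 99 to 93 bases before the start, and GGGCGG once on each strand. GGGCGG was in 32.7% of all promoters. Utf1 held 4 copies of it within 250 bases, of which 2 overlapped and 1 lay beyond the printed stretch, and Pou5f1 held 1 copy at 45 to 40 bases before the RefSeq start. A further RefSeq entry of Pou5f1, chr17:35508557-35508804 and not printed, held ACAATG 158 to 153 bases before its own start. The Lin28a promoter held ACAATG on the opposite strand, 96 to 91 bases before the start. A match of letters is a description and not a measured binding site.

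Before the results, the labels were set against marker genes. The first female Epi culture kept the naive gene Zfp42 at a mean of 72.5 FPKM, against 0.0687 in the male Epi culture and 0.117 in the 7-passage culture. The primed genes Fgf5 and T were lower in it, with Fgf5 at 14.1 FPKM against 144.9 and 119.7, and T at 2.199 against 154 and 147.4. The primed gene Pou3f1 went the other way between the lines, at 3.39 FPKM in female and 0.999 in male Epi. Summed over the 5 primed markers, the median was 129 FPKM in the first female Epi culture, 548 in male Epi and 414 in the 7-passage culture. The summed level of the 5 naive markers had a median of 55.5 FPKM in the first female Epi culture (3.13 to 422) and 2.60 in male Epi (0 to 91.7). It was 0 in the 7-passage culture (0 to 65.7), where Esrrb was at 0 in every cell. Cells labelled motor neuron held the neuronal gene Tubb3 (mean 501.4 FPKM in female and 1621 in male cells) and Isl1 (129 and 190.3), but little Mnx1 (1.59 and 0.877). The motor neuron factor Lhx3 was at 0.0199 FPKM in female cells and at 0 in every male cell. The same cultures held the endoderm genes Sox17 (89.5 FPKM in female and 346 in male cells) and Gata4 (41.7 and 54.3). Cells labelled epiblast at E4.5 held the trophectoderm genes Cdx2 (mean 48.6 FPKM, 20 of 23 cells at 1 FPKM or more) and Krt18 (864). Female E5.5 cells held more of the visceral endoderm gene Apoa1 than male cells (1585 against 424 FPKM) and more of the decidual gene Prl8a2 (43.8 against 2.95). Genes detected per cell at 1 FPKM or more had a median that ranged from 8122 at E3.5 to 10839.5 in female E5.5 cells, and the median FPKM sum of cells labelled motor neuron (female 1332433, male 1478624) was above that of serum cells (862526.7 and 922930.2). Read depth is unknown, since counts were not analysed here.

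**Figure D1:**
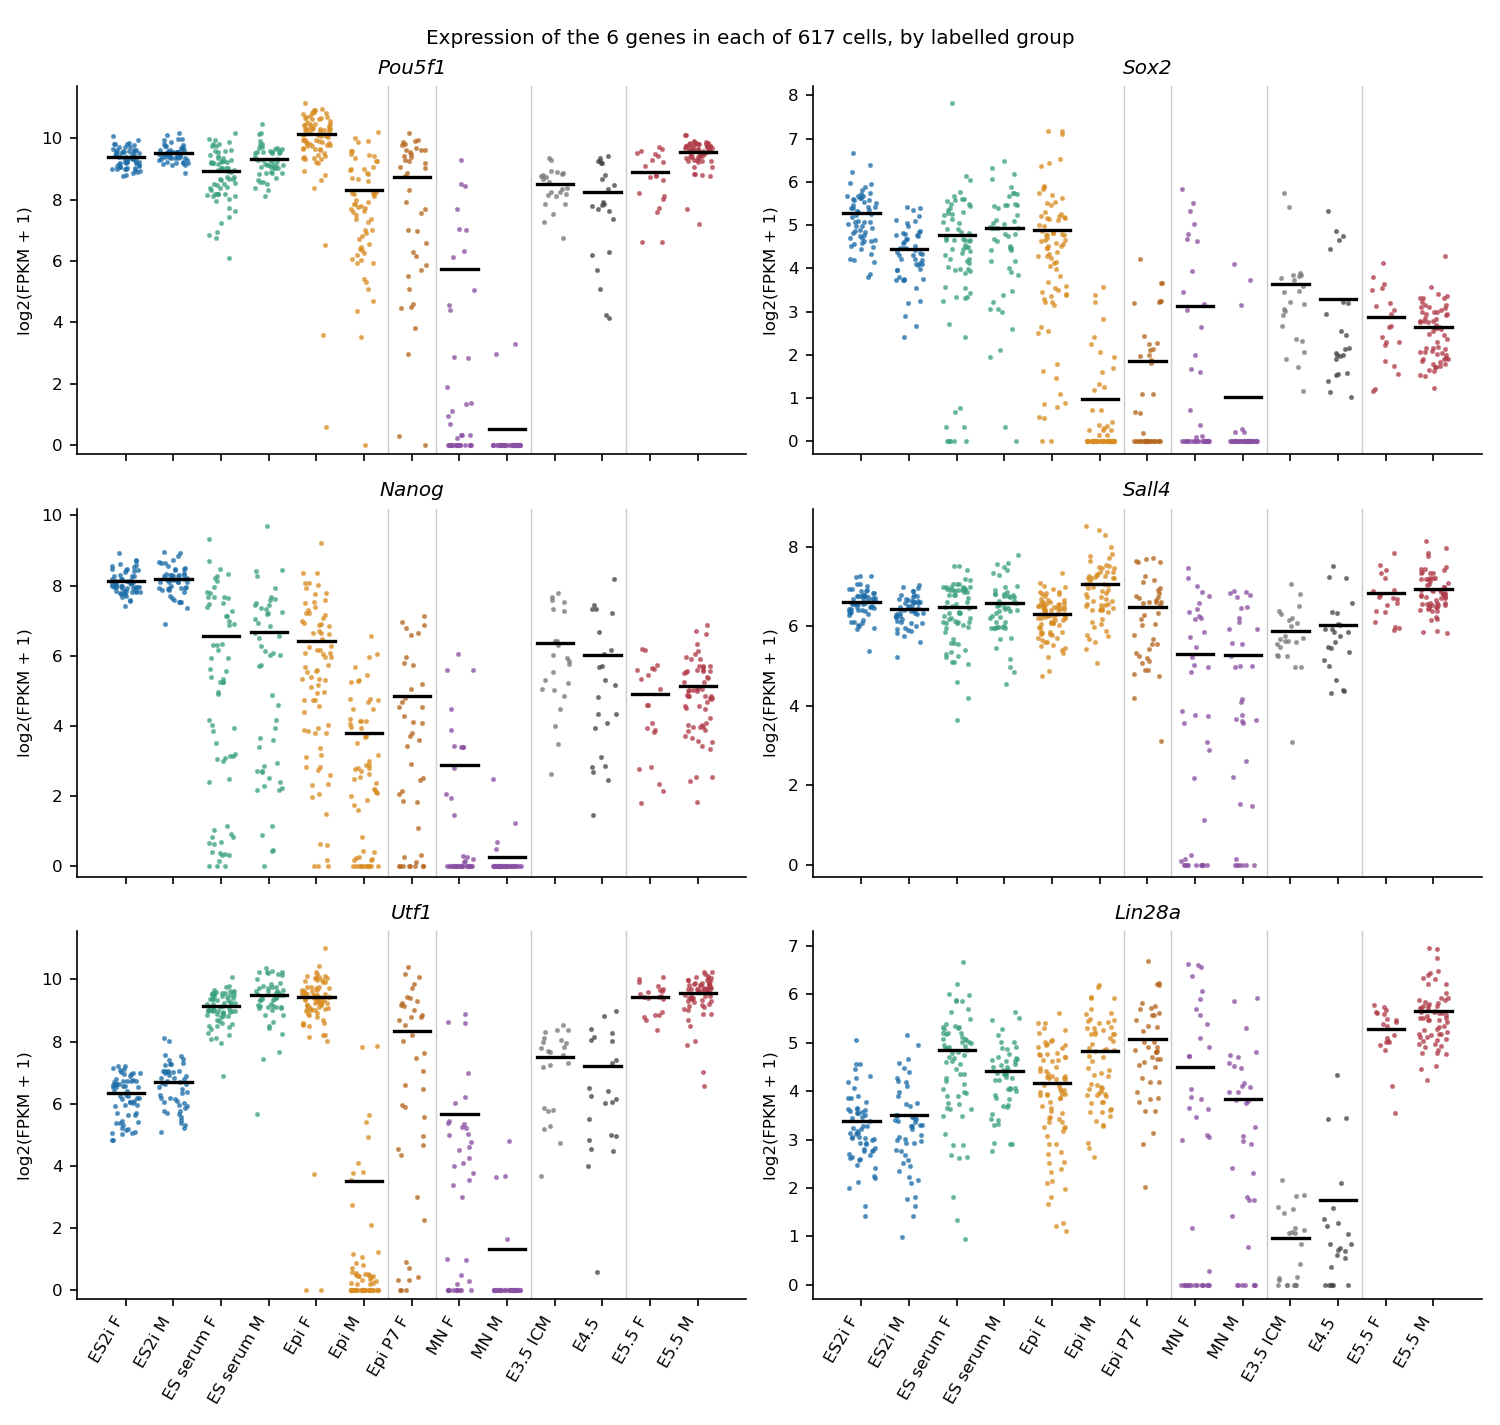
Each point is 1 of 617 cells, the y axis is log2(FPKM + 1), the x axis lists the 13 groups (F female, M male, MN motor neuron, P7 the 7-passage culture), and each black bar is log2(group mean FPKM + 1). Nanog and Pou5f1 form narrow clouds in 2i, Nanog spreads from 0 to 644 and 838 FPKM in serum, and Sall4 is at 1 FPKM or more in every ES and Epi cell.

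Pou5f1 (ENSMUSG00000024406, chr17:35506018-35510772, plus strand, GENCODE vM21 on GRCm38) was the most abundant of the 6 in 2i. Over the 60 female 2i cells it ran from 432 to 1078 FPKM with a median of 653, and over the 51 male cells from 468 to 1148 with a median of 722. In serum the lowest, median and highest cells were at 67.1, 488 and 1154 FPKM in the female line and at 277.6, 620.1 and 1410.3 in the male line. Both serum ranges covered both 2i ranges at their upper end and reached lower, and the coefficient of variation over cells was 0.218 and 0.193 in 2i and 0.493 and 0.343 in serum. The Epi cultures differed between lines, with a mean of 1116 ± 472 FPKM (SD, n = 79 cells) in the female and 317 ± 284.3 (n = 63) in the male culture. The 7-passage culture lay at 423 ± 363 (n = 41), with 1 cell at 0 and the highest at 1142. In motor neuron cultures 17 of 39 female cells were at 1 FPKM or more (43.6%, exact Clopper-Pearson 95% interval 27.8 to 60.4), with a median of 0.263 and a highest value of 624. Only 2 of 35 male cells reached 1 FPKM (5.71%, interval 0.700 to 19.2), the highest at 8.86.

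Sox2 (ENSMUSG00000074637, chr3:34650405-34652461, plus strand) was lower than Pou5f1 in every group mean except that of the male motor neuron culture, where both were near 1 FPKM or below. Its lowest, median and highest cells were at 13.0, 34.4 and 100.5 FPKM in female 2i and at 4.34, 19.5 and 42.04 in male 2i. Serum cells ran from 0 to 226.1 FPKM with a median of 21.6 in the female line and from 0 to 89.02 with a median of 28.1 in the male line. All 2i cells had Sox2 at 1 FPKM or more, whereas 9 of 68 female and 2 of 52 male serum cells did not. Its mean was 28.5 ± 29.8 FPKM (SD, n = 79 cells) in female Epi, 0.962 ± 2.29 (n = 63) in male Epi and 2.63 ± 4.13 (n = 41) in the 7-passage culture. Thus 72 of 79, 13 of 63 and 18 of 41 Epi cells were at 1 FPKM or more. Sox2 lies within Sox2ot on the same strand, a gene that was not analysed here, and fragments of both transcripts could not be told apart.

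Nanog (ENSMUSG00000012396, chr6:122707489-122714633, plus strand) had, of the 6, the largest difference between 2i and serum in the coefficient of variation over cells. In 2i it ran from 169 to 485 FPKM with a median of 263.6 over female cells and from 119.005 to 496 with a median of 287 over male cells. In serum the lowest, median and highest cells were at 0, 37.4 and 644 FPKM in the female line and at 0, 64.3 and 838 in the male line. The coefficient of variation over cells was 0.229 and 0.277 in 2i and 1.34 and 1.39 in serum, so that serum cells covered the whole 2i range and also held cells without detected Nanog. At 1 FPKM or more were 53 of 68 female serum cells (77.9%, exact 95% interval 66.2 to 87.1) and 48 of 52 male serum cells (92.3%, 81.5 to 97.9). The titles of male serum cells fall into a lower and a higher run of numbers that the labels do not explain. Nanog averaged 222 FPKM in the 13 cells of the lower run and 60.1 in the 39 cells of the higher run. Epi means were 84.5 ± 100.9 (SD, n = 79 cells) in the female line, 12.9 ± 18.5 (n = 63) in the male line and 27.9 ± 39.9 (n = 41) in the 7-passage culture. Motor neuron cells were at 1 FPKM or more in 13 of 39 female and 2 of 35 male cells. The pseudogene Nanog-ps1 averaged at most 1.90 FPKM in any group, and how reads shared with it were assigned is not given in the sources used here.

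Sall4 (ENSMUSG00000027547, chr2:168748332-168767943, minus strand) differed little among ES and Epi cultures. It was at 1 FPKM or more in every cell of all 4 ES cultures and all 3 Epi cultures, whose means lay between 78.8 FPKM (female Epi) and 132.2 FPKM (male Epi). In female and male 2i the lowest, median and highest cells were at 40.6, 95.4 and 153 FPKM and at 36.7, 83.6 and 131.6. Serum cells ran from 11.5 to 184 with a median of 87.5 in the female line and from 22.4 to 221 with a median of 88.2 in the male line. Motor neuron cultures kept it in 26 of 39 female cells (mean 38.6 FPKM, median 12.7, highest 177) and in 28 of 35 male cells (mean 37.9, median 16.9, highest 117.1). Both motor neuron means lay below every ES and Epi mean.

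Utf1 (ENSMUSG00000047751, chr7:139943789-139945112, plus strand) gave values that ran opposite to those of Nanog between 2i and serum. Its lowest, median and highest cells were at 27.2, 75.5 and 147.1 FPKM in female 2i and at 32.97, 98.3 and 273.999 in male 2i. In serum they were at 117.9, 553 and 1070.2 FPKM in the female line and at 50.2, 693 and 1329 in the male line. The ranges of single cells overlapped in both lines, and the lowest male serum cell lay below the median of male 2i cells. The Epi cultures stood far apart, with 683 ± 310 FPKM (SD, n = 79 cells) in the female culture and 10.3 ± 40.8 (n = 63) in the male one, where 14 of 63 cells were at 1 FPKM or more. The 7-passage female culture lay between them at 324 ± 368 (n = 41), with 33 of 41 cells at 1 FPKM or more and a highest value of 1341. In motor neuron cultures 24 of 39 female and 4 of 35 male cells reached 1 FPKM.

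Lin28a (ENSMUSG00000050966, chr4:134003330-134018841, minus strand) was the least abundant of the 6 in 2i. Its lowest, median and highest cells were at 1.67, 7.79 and 32.02 FPKM in female 2i and at 0.989, 8.78 and 34.6 in male 2i. In serum they were at 0.936, 26.7 and 100.5 FPKM in the female line and at 5.83, 19.6 and 48.5 in the male line. Every Epi cell held it at 1 FPKM or more, with means of 16.997 ± 10.9 (SD, n = 79 cells), 27.4 ± 16.4 (n = 63) and 32.9 ± 21.2 (n = 41) in the female, male and 7-passage cultures. It was also kept in 23 of 39 female and 27 of 35 male motor neuron cells, with means of 21.6 and 13.3 FPKM. Motor neuron cells thus held Sall4 and Lin28a more often than Pou5f1, Sox2 or Nanog in both lines, as a description of these 2 cultures, while Utf1 was held about as often as Lin28a in the female culture and less often in the male one.

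By the mean of log2 levels over both lines, Pou5f1 followed the order 2i, Epi, serum and motor neuron, in which motor neuron alone did not overlap its neighbour. Nanog followed the order 2i, serum, Epi and motor neuron, and here no neighbouring states overlapped. Sox2 was highest in serum, then in 2i, Epi and motor neuron, and all neighbours overlapped. Sall4 followed the order Epi, serum, 2i and motor neuron, again with motor neuron alone apart. For Utf1 the order was serum, 2i, Epi and motor neuron, in which serum alone did not overlap the next state, and for Lin28a it was serum, Epi, motor neuron and 2i, in which 2i alone stood apart from its neighbour. On the linear scale the Epi means of Pou5f1 and Utf1 over both lines (717 and 347 FPKM) exceeded those of 2i (706.2 and 91.9), the female Epi culture being the higher one in both.

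Serum was compared with 2i to ask how the members differ between the conventional and the inhibitor medium. None of the 6 passed the test, which asked for a log2 change of 1 or more in size and for an adjusted p (Benjamini-Hochberg) under 0.05 in a limma fit of log2(mean FPKM + 1) over the 8 cultures. The fit used 2 cultures per state, and all 6 members were among the 15504 genes whose mean over the cultures reached 1 FPKM. Its spread between lines was pooled over all 4 states, Epi and motor neuron cultures included. For Utf1 the female minus male log2 difference was -0.38 in 2i and -0.34 in serum, but 5.92 in Epi and 4.34 in motor neuron cultures. In the same fit 0.0193% of the genes were called. Of the members, 1 of 6, Lin28a, was at an unadjusted limma p under 0.05 (p = 0.0145), as were 9.99% of all genes tested. Utf1 was higher in serum by a log2 difference of 2.79 (SE 2.06, limma Benjamini-Hochberg adjusted p = 0.789), or 2.81 in the female and 2.78 in the male line. Lin28a was higher by 1.19 (SE 0.36, limma Benjamini-Hochberg adjusted p = 0.311). Nanog was lower, with a difference of -1.55 (SE 1.05, limma Benjamini-Hochberg adjusted p = 0.758), or -1.56 and -1.53 in the lines. These 3 and Pou5f1 (-0.32) had 2i and serum cultures that did not overlap, 4 of 6 members against 53.3% of the genes tested. The difference of Sall4 was 0.01 with a 95% interval of -0.65 to 0.68, and that of Sox2 was 0.00 with an interval of -3.07 to 3.08. When only the 4 ES cultures entered the fit, Nanog (limma Benjamini-Hochberg adjusted p = 0.0276) and Utf1 (0.0262) were called, in a fit that called 3.02% of all genes tested. Within the title runs the Nanog difference was -0.89 (lower run) and -1.98 (higher run).

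The Epi cultures were compared with the same serum cultures to ask how the members differ in primed culture conditions, and none of the 6 was called. All genes gave 0.0387% called, and no member reached an unadjusted p under 0.05 in limma, which 6.45% of all genes reached. The lines moved in different directions for 5 members, as the plot of changes between states shows. Pou5f1 differed from serum by a log2 value of 1.18 in the female and -1.02 in the male line, Sox2 by 0.10 and -3.97, and Utf1 by 0.27 and -5.99. Sall4 differed by -0.18 and 0.48, and Lin28a by -0.68 and 0.41. Nanog was lower in both (-0.14 and -2.87) and was the 1 of 6 members whose Epi and serum cultures did not overlap, against 41.3% of the genes. The naive and primed markers given above move with these differences, since the female Epi culture held Zfp42 and Esrrb, and their part in the result was not tested. With the 7-passage culture replacing the first female Epi culture, the limma difference of Sox2 was -3.44 with a Benjamini-Hochberg adjusted p of 0.0437, and it alone of the 6 was called, where 5.49% of all genes tested were called. That culture came in a separately normalised table. Set against female serum, it gave -0.22 for Pou5f1, -2.92 for Sox2, -1.71 for Nanog, -0.02 for Sall4, -0.81 for Utf1 and 0.23 for Lin28a.

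**Figure D2:**
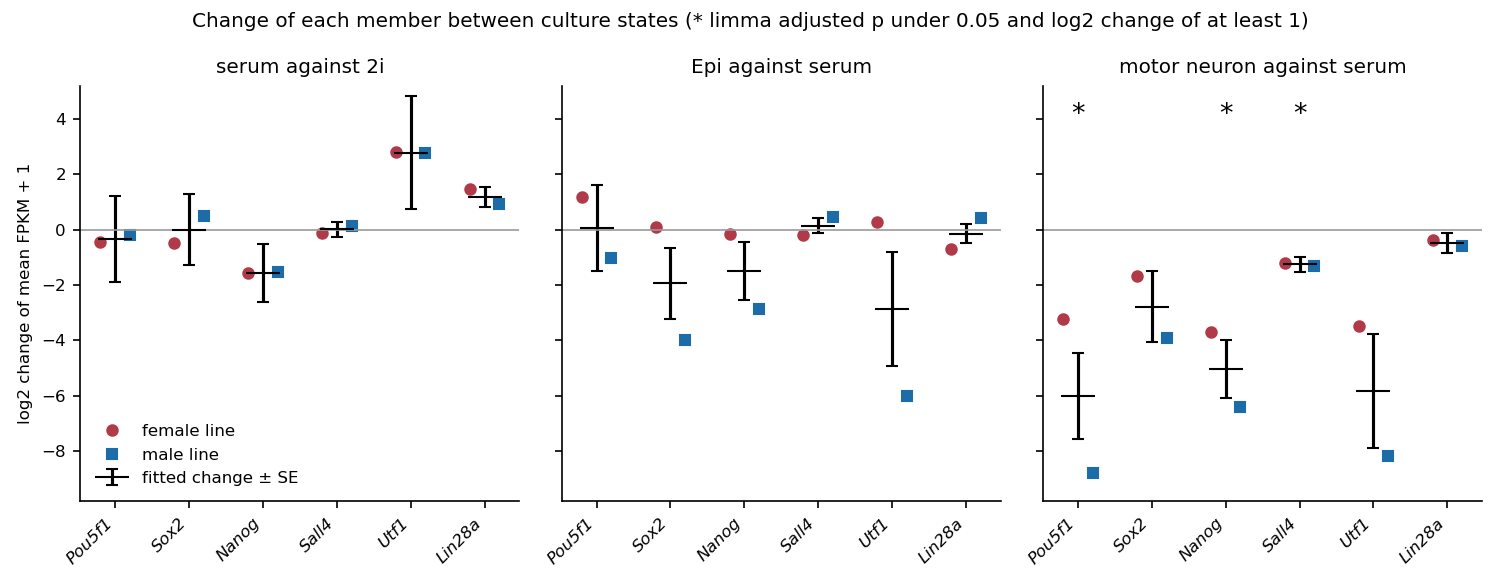
The y axis is the log2 change of mean FPKM + 1 for each of the 6 members in 3 comparisons, with the female line as red circles, the male line as blue squares, and the fitted limma change with its SE in black. Asterisks mark the called members, Pou5f1, Nanog and Sall4 in motor neuron against serum, and the lines lie on opposite sides of 0 for 5 members in Epi against serum.

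In motor neuron cultures Pou5f1, Nanog and Sall4 fell relative to the same serum cultures, 3 of 6 members called, all lower. Of all 15504 genes 32.8% were called and 2.7% were called lower, and 5 of 6 members did not overlap between the states against 70.8% of the genes. Pou5f1 fell by 6.01 on the log2 scale (SE 1.55, limma Benjamini-Hochberg adjusted p = 0.0271), with -3.21 in the female and -8.80 in the male line. Nanog fell by 5.04 (SE 1.05, limma Benjamini-Hochberg adjusted p = 0.0139), with -3.68 and -6.40 in the lines. Sall4 fell by 1.24 (SE 0.28, limma Benjamini-Hochberg adjusted p = 0.0170), and its lines were close, at -1.19 and -1.30. Utf1 differed by -5.83 (SE 2.06) and missed the threshold (limma Benjamini-Hochberg adjusted p = 0.0686), while the fit with line as a replicate block called it (0.0449). Sox2 differed by -2.78 (SE 1.28, limma Benjamini-Hochberg adjusted p = 0.134), and Lin28a by -0.47 with a 95% interval of -1.33 to 0.40. The median of all genes was 0.71, which moved to 0.14 after rescaling each cell to a sum of 1000000 and to -0.26 under upper-quartile scaling, and the 3 called members fell under both. Under upper-quartile scaling Utf1 and Lin28a were called as well, 5 members in all, where 26.5% of all genes were called. No member was called without either serum culture, which leaves 1 serum sample assumed to vary like the other groups, and only Pou5f1 was called without the male motor neuron culture. Without either Epi culture, Sox2 and Utf1 were called beside these 3, again 5 members, where 35.4% (without female Epi) and 35.1% (without male Epi) of all genes were called. The Pou5f1 call was also lost with no filter on low values (limma Benjamini-Hochberg adjusted p = 0.0800), in a fit of only the 4 cultures compared (0.0663), and with either 2i culture left out (0.0578 for the female, 0.0591 for the male one).

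Female and male cultures of a state were set side by side without a test, since each is 1 sample. In 2i and in serum none of the 6 differed by a log2 value of at least 1, against 8.91% and 9.21% of the genes. In Epi 4 of 6 did, all higher in the female culture, where 26.4% of genes differed by as much in either direction and 15.7% were higher in female cells. These were Utf1 with a log2 difference of 5.92, Sox2 with 3.91, Nanog with 2.62 and Pou5f1 with 1.81. The same 4 were higher in the female motor neuron culture, by 4.34, 2.09, 2.62 and 5.21, against 31.1% of genes in either direction and 13.6% higher in female cells. Sall4 and Lin28a stayed within a log2 value of 1 in all of these comparisons, with -0.74 and -0.66 in Epi and 0.03 and 0.67 in motor neuron cultures. At E5.5 none of the 6 differed by at least 1, against 10.7% of genes. Pou5f1 was the member that differed most there, at 473 FPKM in female and 749 in male cells (log2 difference -0.66). Apoa1 and Prl8a2 were higher in the same female cells, as given above, and their part in this difference was not tested.

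Embryonic cells gave the members in vivo, in tables that were normalised apart from the cultures. At E3.5 the lowest, median and highest of 23 cells were at 107.5, 331 and 655 FPKM for Pou5f1, at 1.25, 8.35 and 52.6 for Sox2, and at 5.24, 56.9 and 221 for Nanog. At E4.5 they were at 16.7, 230.4 and 687 for Pou5f1, at 1.05, 3.40 and 39.03 for Sox2, and at 1.76, 34.7 and 289 for Nanog. These 3 genes were at 1 FPKM or more in every blastocyst cell, and the ranges of the stages overlapped throughout. The lowest Sox2 values lay just above that threshold in all 4 embryonic groups (1.25 at E3.5, 1.05 at E4.5, 1.23 and 1.34 in female and male E5.5 cells). Whether cells were selected on such genes before deposit is not given in the sources used here, so these full shares may not describe all cells of the embryos. Sall4 averaged 58.3 FPKM at E3.5 and 64.4 at E4.5, and Utf1 181 and 146.8. Lin28a stood apart from the others, with means of 0.943 and 2.35 FPKM and only 11 and 9 of 23 cells at 1 FPKM or more. None of the 6 differed between stages by a log2 value of at least 1, against 25.1% of genes. Cells that share a leading title number, which the labels do not explain, averaged from 111.7 to 535 FPKM of Pou5f1 and from 14.4 to 130.2 FPKM of Nanog over the 7 numbers at E4.5. At E5.5 each of the 20 female and 63 male cells held all 6 genes. Lin28a then averaged 37.8 ± 11.5 FPKM (SD, n = 20 cells) in female and 49.4 ± 22.3 (n = 63) in male cells, and its lowest E5.5 cells (10.7 and 17.8) lay below the highest E4.5 cell (19.004). Utf1 averaged 696 and 761 FPKM, Sall4 113.5 and 122.6, Nanog 28.9 and 34.3, and Sox2 6.37 and 5.24. Differences across these tables include any difference in their processing.

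Within a cell, the 6 genes were mostly detected together in ES cells, whereas motor neuron cells held fewer of them. All 6 were at 1 FPKM or more in 60 of 60 female and 50 of 51 male 2i cells, in 51 of 68 and 47 of 52 serum cells, and in 67 of 79 female Epi cells. In contrast, 6 of 63 male Epi cells (9.52%) and 17 of 41 cells of the 7-passage culture had all 6. Male Epi cells most often held 4, as 37 of 63 did. No motor neuron cell held all 6. The median number was 3 in the female and 2 in the male motor neuron culture, and 2 of 39 and 3 of 35 cells held none. At E3.5 and E4.5 the median was 5, Lin28a being the gene most often below 1 FPKM.

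**Figure D3:**
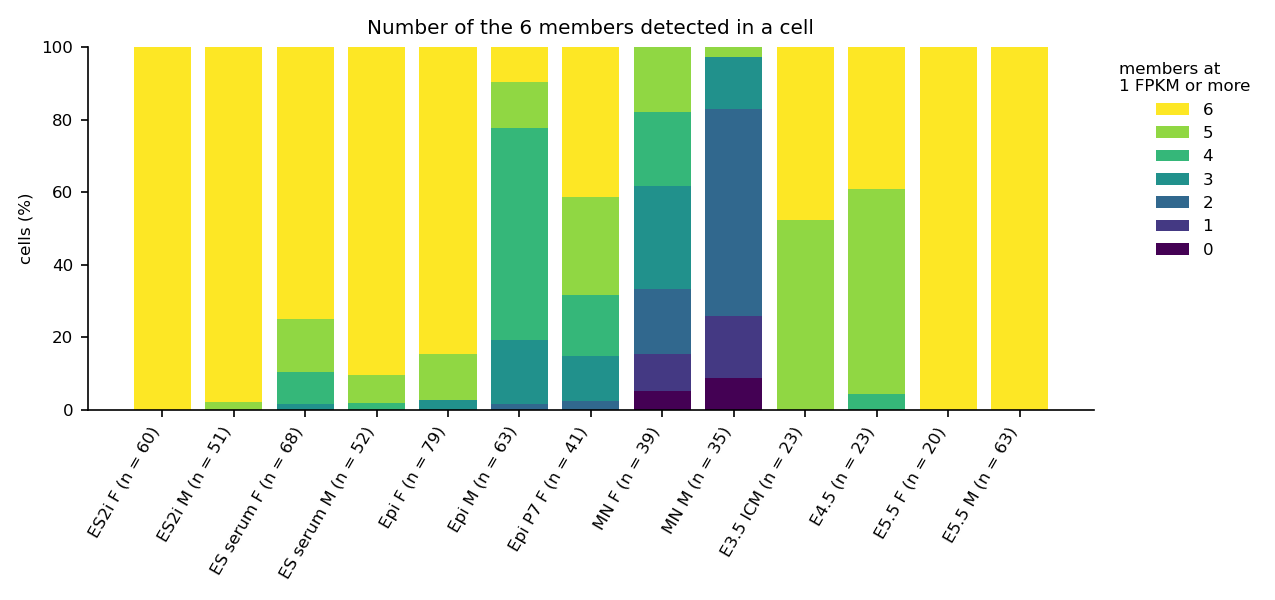
Stacked bars give the percent of cells of each of the 13 groups (x axis, with the number of cells) that held 0 to 6 of the genes at 1 FPKM or more. All cells of female 2i and of both E5.5 groups held 6, and no motor neuron cell did.

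Pairs of genes were then related across the cells of each group by Spearman's rho, as a description without a p. Cells of a group share their culture or embryos, their library preparation and their depth. Of the 195 combinations of a pair and a group, 63.1% were above 0. Pou5f1 and Nanog had a positive rho in 13 of 13 groups (median 0.309, from 0.027 in female motor neuron cells to 0.676 at E4.5). Sox2 and Nanog had the highest median, 0.327, and were above 0 in 9 of 13 groups. Lin28a and Nanog had the lowest, -0.230, and were above 0 in 3 of 13 groups. In 2i the median over the 15 pairs was 0.113 in female and -0.012 in male cells.

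The pairs that stood highest differed between groups. In serum they were Nanog and Sall4, with rho of 0.532 over 68 female and 0.604 over 52 male cells. In the male serum cells both genes were higher in the lower than in the higher title run. Nanog averaged 222 against 60.1 FPKM and Sall4 127.4 against 83.6, and the part of the runs in this rho was not tested. In the first female Epi culture the highest pair was Pou5f1 and Utf1 (0.614 over 79 cells). Titles of that culture also fall into a lower and a higher run, and both genes were higher in the higher run. Pou5f1 averaged 820 FPKM in the lower and 1340 in the higher run, and Utf1 521 and 805. The part of these runs in the relation was not tested. In the 7-passage culture all 15 pairs were above 0, led by Pou5f1 with Utf1 (0.861), Pou5f1 with Sox2 (0.784) and Sox2 with Utf1 (0.719) over 41 cells. There, 18 cells held both Pou5f1 and Sox2 at 1 FPKM or more, 21 held Pou5f1 alone, none held Sox2 alone and 2 held neither. Pou5f1, Sox2 and Utf1 were also inverse to the FPKM sum of a cell in that culture (rho -0.593, -0.523 and -0.511), and its part in the relation was not tested, although the 3 values after rescaling each cell to a sum of 1000000 were 0.860, 0.787 and 0.722. In female motor neuron cells Sall4 and Lin28a had a rho of 0.638 over 39 cells, and 18 of them held both. Each of the pair was also inverse to the FPKM sum (rho -0.682 and -0.628), and the rescaled value was 0.676. Pou5f1 and Utf1 had 0.514 in the same cells, while both ran with the number of genes per cell (rho 0.415 and 0.434), whose part was not tested. At E5.5 some pairs were inverse. Nanog and Utf1 had -0.556 over 63 male and -0.42 over 20 female cells. Pou5f1 and Sox2 had -0.507 over the female cells but 0.011 over the male cells. In the female cells Pou5f1 was inverse to the FPKM sum (-0.587) and Sox2 ran with it (0.406), and the part of that sum was not tested. The rescaled value of Pou5f1 and Sox2 there was -0.456.

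**Figure D4:**
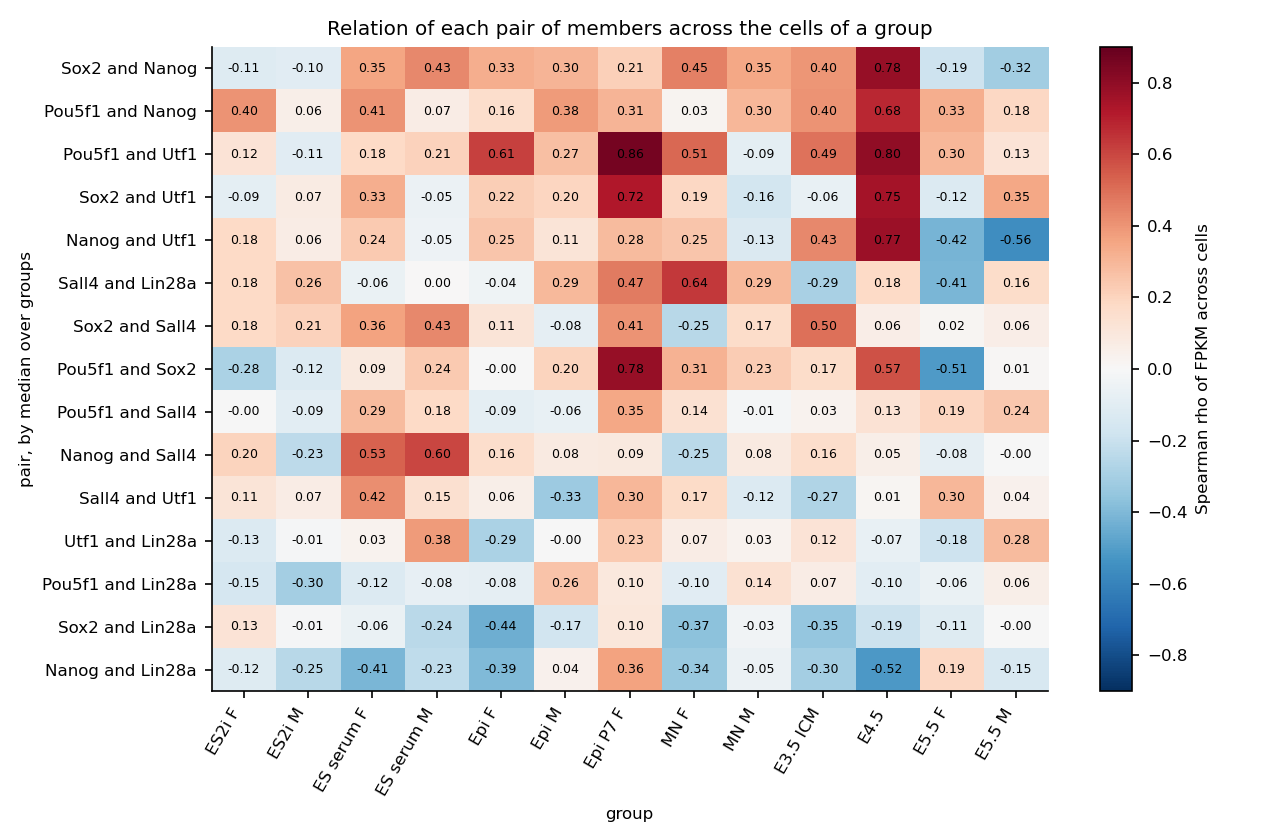
Rows are the 15 pairs of genes in the order of their median, columns are the 13 groups, and each cell gives Spearman's rho of FPKM across the cells of the group, from blue (negative) to red (positive). The E4.5 and 7-passage Epi columns hold the highest values, up to 0.798 and 0.861, and the rows of Lin28a with Sox2 and Nanog are mostly negative.

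The E4.5 cells showed Pou5f1, Sox2, Nanog and Utf1 high and low in the same cells. The 6 pairs among these 4 genes had rho from 0.570 (Pou5f1 and Sox2) to 0.798 (Pou5f1 and Utf1) over 23 cells. The same 4 were inverse to Cdx2, the trophectoderm factor, with rho of -0.727 for Pou5f1, -0.757 for Sox2, -0.606 for Nanog and -0.744 for Utf1. They were inverse to Eomes as well (-0.750, -0.749, -0.631 and -0.815) and ran with the naive factor Esrrb (0.646, 0.808, 0.699 and 0.726). The summed level of the 8 trophectoderm markers ranged from 11.4 to 3205 FPKM among these cells, with a median of 1254. Sall4 and Lin28a differed from these, at -0.08 and 0.04 with Cdx2, and Lin28a ran with the endoderm factor Sox17 (0.776). Most Lin28a values were low in these cells, with a median of 0.688 FPKM, 6 of 23 cells at 0 and 9 at 1 FPKM or more. At E3.5, where 13 of 23 cells held Cdx2, it was inverse to Pou5f1 (-0.615) and Utf1 (-0.689).

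In serum, Nanog moved with naive genes across cells. Its rho was 0.788 with Esrrb, 0.768 with Zfp42 and 0.689 with Tfcp2l1 over 68 female cells, and 0.631, 0.623 and 0.522 over 52 male cells. In the first female Epi culture Sox2 ran with Esrrb (0.671) and was inverse to Fgf5 (-0.651). Lin28a was inverse to Esrrb (-0.619) and ran with the DNA methyltransferase Dnmt3b (0.691). In the 7-passage culture Dnmt3b ran with Utf1 (0.883), Pou5f1 (0.836) and Sox2 (0.763), and the epithelial keratin Krt8 was inverse to Sox2 (-0.728) and Pou5f1 (-0.700). In male Epi cells the primed markers split, since Pou5f1 ran with T (0.740 over 63 cells), Dnmt3b (0.442) and Pou3f1 (0.237). Its rho was -0.442 with Otx2 and -0.108 with Fgf5. Among 20 female E5.5 cells Pou5f1 ran with the primed markers Dnmt3b (0.854), Fgf5 (0.771) and Otx2 (0.689). It was inverse to the primed markers Pou3f1 (-0.522) and T (-0.37), so that this list split. Pou5f1 was also inverse to Gata3 (-0.767) and to the FPKM sum of a cell (-0.587), and the part of that sum was not tested. Its rho with the visceral endoderm gene Apoa1 was 0.036 in these cells. Over 63 male E5.5 cells its rho with Apoa1 was -0.395.

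Among motor neuron cells, Sall4 was high and low together with markers of other cell types. Over 35 male cells Sall4 was inverse to the neuronal genes Map2 (-0.775), Slc18a3 (-0.688), Dcx (-0.664) and Tubb3 (-0.648). It ran with the endoderm genes Gata4 (0.634), Foxa2 (0.615) and Sox17 (0.605). Over 39 female cells the values were -0.448 with Map2, -0.361 with Slc18a3, -0.238 with Dcx and -0.345 with Tubb3. They were 0.514 with Gata4, 0.412 with Foxa2 and 0.333 with Sox17. In those female cells 14 of the 15 with Gata4 at 1 FPKM or more also held Sall4, against 12 of the other 24. Lin28a had -0.456 with Map2 and 0.549 with Gata4 in female cells, and -0.377 and 0.300 in male cells. The part of such mixed cells in the motor neuron means of Sall4 and Lin28a was not tested. Both genes were also inverse to the FPKM sum of a cell (rho -0.682 and -0.628 in female, -0.384 and -0.316 in male cells). The part of that sum in these marker relations was not tested.

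**Figure D5:**
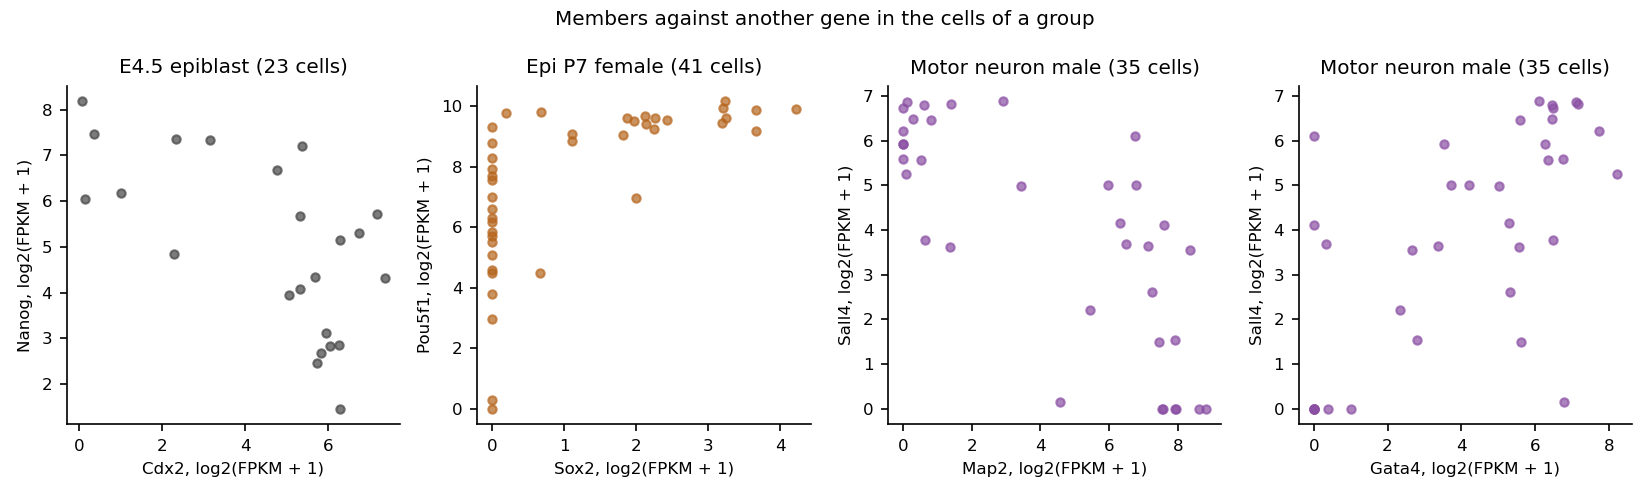
Each panel plots 1 member against another gene over the cells of 1 group, both axes in log2(FPKM + 1) and each point 1 cell. Nanog against Cdx2 at E4.5 (23 cells) slopes down with rho -0.606, Pou5f1 against Sox2 in the 7-passage culture (41 cells) slopes up with 0.784, and Sall4 in male motor neuron cells (35 cells) slopes down with Map2 (-0.775) and up with Gata4 (0.634).

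Related genes of the members, listed with earlier results known, were read in the same limma fit. Of 10 tested paralogs of the members' families, none was called in serum against 2i (median log2 difference 0.72, all genes 0), and the values farthest from 0 were those of Pou3f1 (1.82) and Sall3 (-1.65). None was called in Epi against serum (median 0.68, all genes 0.12), with Sox15 at -2.64 and Sox11 at 1.31. In motor neuron against serum 3 of 10 rose and none fell (median 0.46, all genes 0.71), a share near the 30.1% of all genes that were called higher. They were Sox11 by 4.74 (limma Benjamini-Hochberg adjusted p = 0.00349), Sox4 by 2.68 (0.00664) and Sall2 by 1.89 (0.00564), of which Sall2 was not called under upper-quartile scaling. Sox11 and Sox4 are factors of developing neurons.

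Among 21 genes known as targets or partners of Pou5f1, Sox2 and Nanog, none was called in serum against 2i (median 0.22), where Dnmt3l differed by 4.24 and Lefty2 by -1.53. None was called in Epi against serum (median -1.25), where Dppa5a differed by -4.59 and Spp1 by -4.16. The lines stood apart in both. Dppa5a was at 3671 FPKM in female Epi against 2746 in female serum, and at 2.94 against 3063 in the male line. Spp1 was at 198 against 315 in the female and at 0.475 against 294 in the male line. In motor neuron against serum all 21 changes were negative (median -3.20, all genes 0.71) and 6 were called, where 2.7% of all genes were called lower. Among these were Tdgf1, a Nodal co-receptor (-4.97), Zscan10 (-4.002), Lefty2, a Nodal inhibitor (-3.79), Rest, a repressor of neuronal genes (-2.23), and Jarid2, a Polycomb partner (-1.85). Of 12 genes of the Lin28 and let-7 axis, none was called in serum against 2i (median 0.02, with Hmga2 at -1.17 and Igf2bp2 at -1.04) or in Epi against serum (median 0.38, with Hmga2 at 1.63 and Igf2bp2 at 0.82). In motor neuron against serum Tut7, a terminal uridylyltransferase, rose by 1.91, and the RNA-binding genes Igf2bp1 and Trim71 fell by 1.58 and 1.52 (median of the 12 genes 0.73). These 3 of 12 were not a larger share than the 32.8% called over all genes. By direction, 1 of 12 was called higher against 30.1% of all genes, and 2 of 12 were called lower against 2.7%. Tut7 was not called under upper-quartile scaling, while all 12 genes called in these lists kept their direction under both other scalings.

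The genes whose levels most resembled each member were taken over the 447 cells of the culture table, among 9311 protein-coding genes whose mean reached 10 FPKM in a culture. These values mix differences between cultures with those within them, so the median rho within the cultures is given as well. Among the 3 genes most like Nanog were Prdm14 (rho 0.823, median within cultures 0.282) and Mylpf (0.805 and 0.313). Utf1 was most like Dppa4 (0.847 and 0.197), Dppa2 (0.824 and 0.173) and Ltbp4 (0.803 and 0.118). Sox2 was most like Ooep (0.724 and 0.238), Esrrb (0.721 and 0.329) and Klf2 (0.691 and 0.205). For Pou5f1 these genes were Gsta4 (0.698 and 0.297), Rbpms2 (0.667 and 0.155) and 1700019D03Rik (0.659 and 0.122). Sall4 and Lin28a had no gene above 0.52. Among the 3 genes most like Sall4 were Ifitm1 (0.475 and 0.225) and Set (0.436 and 0.248), and Lin28a was most like Emb (0.514 and 0.306), Dnmt3b (0.513 and 0.297) and Car4 (0.463 and 0.301).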

How the data were processed

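FPKM per gene and cell were computed by the authors and deposited in 4 separately normalised tables. Per the submitters' processing notes, the tools include STAR 2.4.1, Cufflinks and Cuffnorm 2.2.1 and the build is mm10, with no role or order. Annotation, strand setting and cell filters are not given in the sources used here. Of 43628 Ensembl identifiers, 42548 matched GENCODE vM21. In 356 values the exponent was written with the character _ in place of a minus sign and was read as negative, and the largest of them was 9.7552e-05 FPKM. No cells were duplicates (highest Pearson r of log2 values between cells 0.938). Depth is unknown, so exact Clopper-Pearson intervals of shares of cells cover counting error only.

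Cells of 1 culture are not replicates, so each culture was summarised by its mean FPKM. The 8 cultures of the first table were fitted together on log2(mean FPKM + 1), a pseudocount of 1 that understates changes of low genes, with limma 3.58.1 (trend) in R 4.3.3. The fit kept 15504 genes with a mean over cultures at or above 1 FPKM. A call needed both a log2 change of 1 or more in size and an adjusted p, by Benjamini and Hochberg, under 0.05. The comparisons of Epi and of motor neuron cultures share their serum controls. P-values measure the spread between the 2 lines pooled over all 4 states, not only over the states compared. Groups of 1 sample were compared without a test. Other values were computed with Python 3.11.15, pandas 2.3.3, numpy 2.4.6 and scipy 1.17.1.

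Cultures of the same line pair across states per the labels. Correlations of their deviations from state means lay between 0.0605 and 0.163 over 15504 genes. A fit with the line as replicate block was therefore run as well.

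The members and all gene lists were chosen with earlier results of these data known. All 6 members are named, together with the genes of other lists that were called or farthest from 0, and the 3 protein-coding genes most like each member by Spearman's rho. Some of the genes this rule names are not reported here. Promoters and their positions come from the RefSeq table of GRCm38.p6. Proteins were not used here. Alternatives were the pseudocount, the filter, the culture summary, the scaling, low-gene cells, the block, the cultures fitted, the 7-passage culture, title runs, the fold threshold and each culture left out.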

Additional observations from a re-analysis of the deposited data

Results flagged for a closer look

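In 7 cases the female and the male line moved in opposite directions under the same comparison of culture states. Each line had 1 culture per state, so the difference between the lines was not tested, and line and sex cannot be told apart. All values are log2 changes of mean FPKM + 1.

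Between serum and 2i the opposite values were small. Sox2 differed by -0.49 in the female and 0.50 in the male line, and Sall4 by -0.12 and 0.14.

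Between Epi and serum they were small for some genes and large for others. Utf1 differed by 0.27 in the female and -5.99 in the male line, and Sox2 by 0.10 and -3.97. Pou5f1 had 1.18 and -1.02. The differences of Lin28a were -0.68 and 0.41, and those of Sall4 were -0.18 and 0.48. For Utf1, Sox2 and Pou5f1 it was the female Epi culture that lay higher, and for Lin28a and Sall4 the male one.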

How the results depend on the processing

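No result changed sign past its threshold under any alternative that was run. Of the members, 2 were called in serum against 2i when only the 4 cultures compared were fitted (3.02% of all genes called), and 1 in Epi against serum with the 7-passage culture (5.49%). In motor neuron against serum, 5 were called in place of 3 with the mean of log2 over cells (22.1% of all genes), upper-quartile scaling (26.5%) or the 7-passage culture (36.8%), and from 0 to 5 with a culture left out. Lin28a alone passed a log2 difference of 1 in E4.5 against E3.5 with a pseudocount of 0.1. With line as a replicate block, 4 members were called in motor neuron against serum (Utf1 added) and none in the other comparisons. Over 20 alternatives, Pou5f1 ranged from -8.61 to -3.40 there (limma adjusted p 0.00316 to 0.120, called in 14), Nanog from -6.35 to -3.73 (0.00482 to 0.0763, called in 17) and Sall4 from -2.68 to -1.08 (0.0041 to 0.0920, called in 17).

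Counts over all genes moved more. In serum against 2i, 3 genes were called, against 0 with a pseudocount of 0.1 or the block, 27 without a filter, 224 with the mean of log2, 24 with upper-quartile scaling, 0.738% of the genes tested with the 7-passage culture, 11 in the higher title run, 409 in the fit of 4 cultures and 0 to 51 with a culture left out. In Epi against serum, 6 were called, against 9 without a filter, 4 with the mean of log2, 1 in the lower title run, 2 with the block, 848 with the 7-passage culture, 1 in the fit of 4 cultures and 0 to 366 with a culture left out. In motor neuron against serum, 5088 were called, against 3137 after rescaling cells and 1669 to 5486 with a culture left out. Rescaling changed the sign of 18 of 195 pair relations, and Pearson's r that of 20. Without read counts, values near 0 carry an unknown error.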
